A study of Sus scrofa with 8 samples.

Results

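Of the 28077 genes that RefSeq places on chromosomes 1 to 18 and X of the pig genome (build Sscrofa11.1), 709 had H3K27ac and no H3K4me3 at their annotated start. A gene was a member when a peak of acetylated lysine 27 of histone H3 lay within 1 kb of its start in both H3K27ac libraries and no peak of trimethylated lysine 4 lay within 1 kb in either H3K4me3 library. Members made up 2.53% of all genes, whereas 13207 genes (47.0%) had both marks in both replicates at the start and 11043 had neither. Members were thus chosen by the H3K27ac and H3K4me3 peak calls themselves, so the presence of H3K27ac and the absence of H3K4me3 there are descriptions and were not tested. All classes of genes were read from the same 6 libraries, and no test between classes was made.

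The libraries were chromatin immunoprecipitations from untreated embryonic fibroblasts of Large White pigs, taken from fetuses at 35 days and cultured briefly. H3K4me3, H3K27ac and the insulator protein CTCF were each profiled in 2 replicates of these cells, and there was no treated or mutant group. The sources do not state whether the replicates came from separate cultures or litters, so the spread between replicates may be technical. The lists held between 37932 and 43516 H3K4me3 peaks, between 74983 and 81164 H3K27ac peaks and between 40289 and 44682 CTCF peaks. Read depth per peak is not known, and the value printed for a peak is its fold enrichment over control at the summit, as the peak caller gave it. All 11 fibroblast markers that were checked, which include collagen and mesenchymal genes, carried both marks at their starts.

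H3K27ac is laid down at active promoters and at active enhancers, which can lie far from any gene. H3K4me3 is deposited mainly at promoters where transcription begins, most strongly at those rich in CpG dinucleotides, and is weak at most enhancers.

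The microRNA genes among the members are shown first, because they were the biotype of which the largest share were members. In the annotation a microRNA gene is the hairpin, not the start of the longer primary transcript. The mature sequences below were read from RefSeq coordinates on Sscrofa11.1, 5′ to 3′, with the seed (bases 2 to 8) in capitals.
ssc-miR-143-3p: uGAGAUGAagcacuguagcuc
ssc-miR-145-5p: gUCCAGUUuucccaggaaucccuu
ssc-miR-29a: cUAGCACCaucugaaaucgguua
ssc-miR-29b: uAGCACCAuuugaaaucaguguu
ssc-miR-100: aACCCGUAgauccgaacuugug
ssc-let-7a: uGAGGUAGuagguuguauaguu
ssc-miR-221-3p: aGCUACAUugucugcuggguuu
ssc-miR-222: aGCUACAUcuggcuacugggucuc
ssc-miR-23b: aUCACAUUgccagggauuacca
ssc-miR-27b-3p: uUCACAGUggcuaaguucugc
The miR-221-3p and miR-222 sequences have an identical seed. As annotated, miR-29a begins 1 base before miR-29b, so their seeds are offset and share the 6-base run AGCACC. The let-7a and miR-100 hairpins were a pair on chromosome 9, as were those of miR-143 and miR-145 on chromosome 2.

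The 5 promoter windows printed here show how starts differed in CpG content, each from 250 bases before to 50 bases from the start on, with every CG in capitals. Of 3 starts that lay away from H3K4me3, the first belongs to CYP19A1, which encodes aromatase, the enzyme that makes oestrogens (chr1:120595985-120596284, plus strand). The second belongs to CSF2, a cytokine that acts on granulocytes and macrophages (chr2:134354474-134354773, plus strand), and the third to MYOG, a transcription factor of muscle differentiation (chr9:113785263-113785562, minus strand). The last windows are the annotated start of LDHA, a subunit of lactate dehydrogenase (chr2:40827235-40827534, minus strand), and another annotated start of LDHA that had H3K4me3 (chr2:40825198-40825497, minus strand).
CYP19A1 start: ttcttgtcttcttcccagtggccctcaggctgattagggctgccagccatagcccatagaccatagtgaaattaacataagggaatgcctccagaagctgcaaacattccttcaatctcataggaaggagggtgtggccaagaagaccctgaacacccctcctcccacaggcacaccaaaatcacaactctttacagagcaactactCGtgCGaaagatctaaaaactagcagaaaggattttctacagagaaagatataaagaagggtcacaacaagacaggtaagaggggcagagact
CSF2 start: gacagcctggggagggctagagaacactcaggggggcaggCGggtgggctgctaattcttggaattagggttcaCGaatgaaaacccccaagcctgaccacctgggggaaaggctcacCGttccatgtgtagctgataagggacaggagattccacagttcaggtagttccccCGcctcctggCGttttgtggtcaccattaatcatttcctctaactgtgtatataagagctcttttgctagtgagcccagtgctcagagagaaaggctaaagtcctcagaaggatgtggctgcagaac
MYOG start: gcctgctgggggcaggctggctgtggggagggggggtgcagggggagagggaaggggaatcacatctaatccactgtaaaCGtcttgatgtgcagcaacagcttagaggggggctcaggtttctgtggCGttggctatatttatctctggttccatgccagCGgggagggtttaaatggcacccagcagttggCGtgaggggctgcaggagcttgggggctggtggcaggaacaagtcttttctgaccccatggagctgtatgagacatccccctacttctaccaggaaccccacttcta
LDHA gene start: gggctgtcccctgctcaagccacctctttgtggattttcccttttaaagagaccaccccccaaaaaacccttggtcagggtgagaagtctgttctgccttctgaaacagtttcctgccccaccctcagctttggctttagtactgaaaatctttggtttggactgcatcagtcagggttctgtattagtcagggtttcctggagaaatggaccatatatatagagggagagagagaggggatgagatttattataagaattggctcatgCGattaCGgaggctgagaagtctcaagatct
LDHA marked start: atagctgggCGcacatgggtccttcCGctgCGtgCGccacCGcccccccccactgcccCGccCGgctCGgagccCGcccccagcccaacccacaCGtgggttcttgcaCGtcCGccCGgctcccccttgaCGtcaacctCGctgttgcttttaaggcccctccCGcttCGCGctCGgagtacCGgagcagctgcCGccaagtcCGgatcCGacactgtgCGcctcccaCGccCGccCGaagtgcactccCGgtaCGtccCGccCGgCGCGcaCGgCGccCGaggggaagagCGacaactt
The CYP19A1 window held 2 CpG and the CSF2 window 5, with observed over expected CpG ratios of 0.123 and 0.244. The MYOG window held 4, with a ratio of 0.170. At LDHA the gene start held 2 CpG (ratio 0.123), whereas the marked start 2037 bp downstream held 37 (ratio 1.02).

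Long non-coding RNAs were the largest biotype among the members, with 319 genes (45.0% of members against 19.2% of the annotation). Protein-coding genes were fewer, at 283 (39.9% against 69.4%). Where a peak counted only by its summit lying within 1 kb, 65.0% of the members were protein-coding, so this order rests on counting any base of a peak. Pseudogenes gave 64 members, microRNAs 33, tRNAs 8, and a transcribed pseudogene and a V segment 1 each. Read the other way, 10.7% of the 307 annotated microRNA genes and 5.91% of lncRNA genes were members, against 1.45% of protein-coding genes, with 2.53% of all genes as the background. Genes with both marks were 86.9% protein-coding and 10.1% lncRNA, so the composition of the members lay nearer to that of genes with neither mark (48.6% and 28.8%). Nearest was that of the 148 genes with H3K27ac in both replicates and H3K4me3 in 1 replicate only. These were 48.0% protein-coding and 42.6% lncRNA. All 319 lncRNA members had only a locus number for a name, and 240 of the protein-coding members had a symbol of their own.

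**Figure D1:**
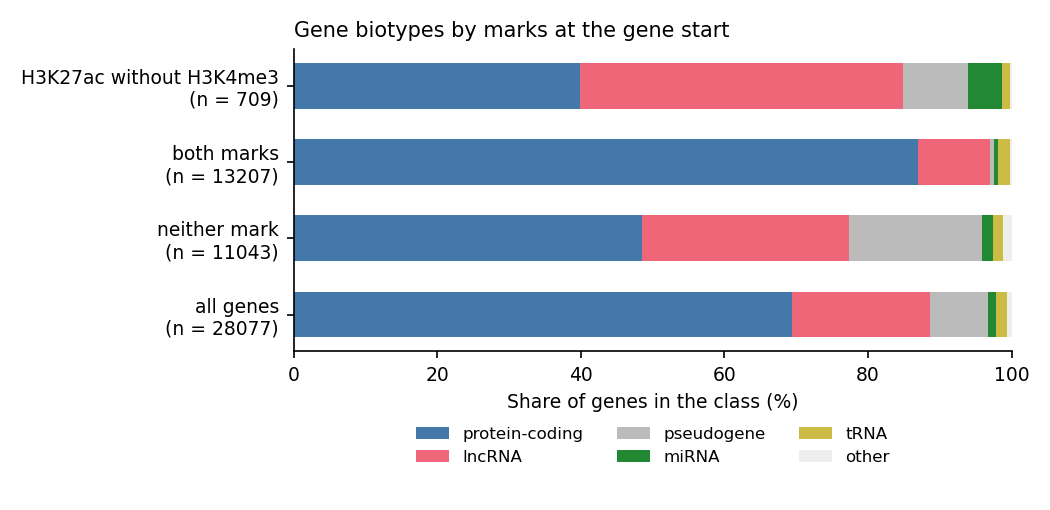
Share of each gene biotype (percent, horizontal axis) among the 709 members, the 13207 genes with both marks, the 11043 genes with neither mark and all 28077 genes. LncRNAs took 45.0% of the members and 10.1% of the genes with both marks.

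Member starts were inside other genes more often than gene starts in general, but not nearer to other gene starts. The start was inside another gene for 32.7% of members against 19.8% of all genes, and for 24.7% that gene was on the opposite strand (15.5% of all genes). The gap was smaller within lncRNAs (33.9% of members against 28.9% of annotated genes) and within protein-coding genes (20.5% against 14.8%). Among pseudogene members 60.9% were inside another gene, against 34.2% of annotated pseudogenes. Among microRNA members the share was 60.6%, close to the 57.7% of all annotated microRNA genes. Of genes with H3K27ac in both replicates and H3K4me3 in 1 replicate only, 29.1% had their start inside another gene, so this was not particular to members. Another gene start lay within 5 kb of 16.1% of members and 27.7% of all genes, and the median distance to the nearest one was 21270 bp against 15433 bp. The nearest start lay within 5 kb and had both marks for 48 members (6.77%) against 20.0% of all genes, a difference that the rule partly fixes, since it leaves out starts with H3K4me3 within 1 kb. For 102 members (14.4%) the nearest gene start belonged to another member, compared with 2.44% over all genes. Gene models backed by a curated transcript made up 18.3% of the members with an annotated transcript and 16.6% of all such genes, which were similar shares.

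The nearest H3K4me3 peak was a median of 7374 bp from the start in replicate 1 and 6627 bp in replicate 2. Taking the nearer of both lists, the median was 5835 bp and the lower and upper quartiles were 2346 and 14258 bp. Starts with neither mark were farther away, at a median of 23943 bp. Between 1 and 2 kb there were 142 members, between 2 and 5 kb 183, between 5 and 10 kb 147 and between 10 and 50 kb 191. Another 37 lay at 50 to 100 kb and 9 beyond 100 kb. The peak was downstream of the start for 378 members and upstream for 331, so neither side dominated.

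The biotypes differed little in this distance beside its spread. The median was 4635 bp for protein-coding members, 5406 bp for microRNAs, 6435 bp for lncRNAs and 7141 bp for pseudogenes. More than 10 kb separated the start from H3K4me3 in 27.6% of protein-coding members, 37.3% of lncRNAs and 42.2% of pseudogenes.

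**Figure D2:**
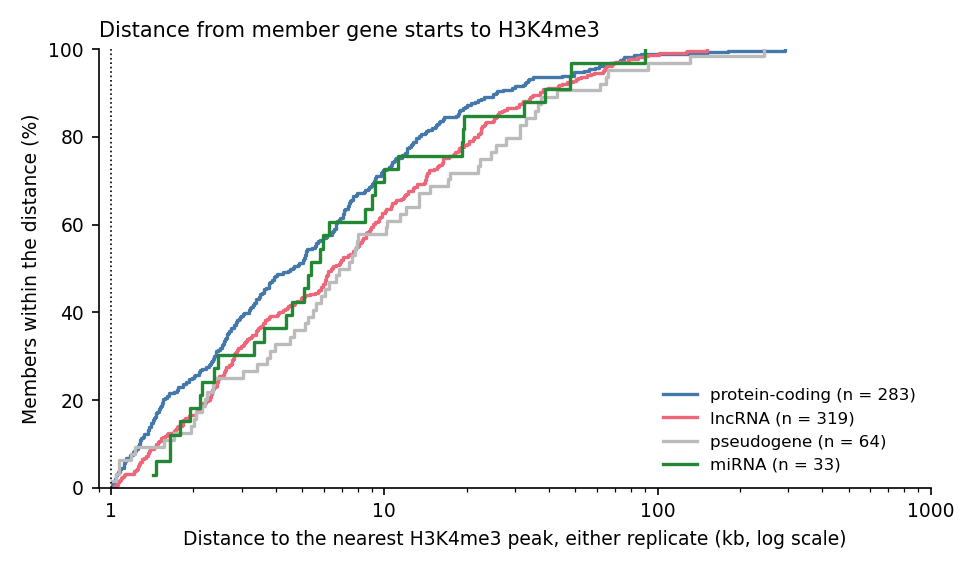
Cumulative share of members (percent) within a given distance of the nearest H3K4me3 peak of either replicate (kb, log scale), by biotype; the dotted line is the 1 kb limit of the rule. Of the 4 biotypes drawn, protein-coding genes had the shortest median, 4635 bp, and pseudogenes the longest, 7141 bp.

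The nearest H3K4me3 peak was at another annotated start of the same gene for 46 members and at the start of a different gene for 144. For 160 members it lay inside the member gene and for 359 outside it, at neither kind of start. For different genes only the gene start was checked, and for the member only its starts more than 1 kb from the gene start. Most of the nearest peaks therefore marked none of the starts that were checked, and no share over other genes was computed. LncRNA members had 95 peaks of the inside kind (29.8%) and 5 at another start of their own. The H3K27ac peak at the start itself overlapped an H3K4me3 peak farther along in 181 members in replicate 1 and 177 in replicate 2, and in 161 this was so in both.

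Distances ran on without a gap across the 1 kb limit. The members nearest to the limit were LOC102162747, LOC110261484 and UBE2D3, a ubiquitin-conjugating enzyme, with H3K4me3 at 1003, 1006 and 1009 bp. Just outside it LOC106507341 and LOC110260445 had H3K4me3 at 1000 bp and BIN3 at 998 bp. On the acetylation side CHRD, an antagonist of bone morphogenetic proteins, was a member with its H3K27ac peak at 1000 bp in replicate 2 and nearer in replicate 1. SPHK1 and MIR24-2 at 1001 bp were not members. In replicate 1 H3K4me3 was 19855 bp from LOC102162747 and 9461 bp from UBE2D3, so the peaks just past the limit were seen there in replicate 2 alone.

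Among protein-coding members with a symbol, those farthest from H3K4me3 were led by a pair of neighbours on chromosome 1. Only LOC100625464, a protein-coding member with a locus number, lay farther, at 292987 bp, and was added after its values were seen. CYP19A1 (120596235 to 120627806) lay 196715 bp from H3K4me3 in replicate 1 and 180538 bp in replicate 2. Its start was covered by an H3K27ac peak of 1996 bp with fold enrichment of 14.7 in replicate 1 and of 2009 bp with 17.3 in replicate 2. A CTCF peak was also present, with folds of 7.69 and 6.77. CYP19A2, another aromatase gene (120652172 to 120695899), had folds of 13.1 and 13.6 and lay 151444 bp from the nearest H3K4me3. Both starts were thus above the median member fold in both replicates, with no H3K4me3 peak between them.

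The other symbol-bearing members far from H3K4me3 had mixed acetylation. ABCC2, an efflux pump of the bile canaliculus, had folds of 16.8 and 14.5 with H3K4me3 58889 bp away at the start of CUTC and its neighbour. CSF2 had 3.18 and 4.10 with H3K4me3 at 75781 bp in replicate 1 and 73097 bp in replicate 2. HK3, a hexokinase, had 2.72 and 2.99 at 75492 bp. PADI4, which converts arginine to citrulline in proteins, had 2.19 and 3.35 at 74573 bp. CCR4, a chemokine receptor, had 5.11 and 3.45 at 66767 bp, and KCNJ13, a potassium channel, had 3.51 and 3.59 at 65745 bp. Apart from ABCC2 these folds were below the median of the members in both replicates.

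**Figure D3:**
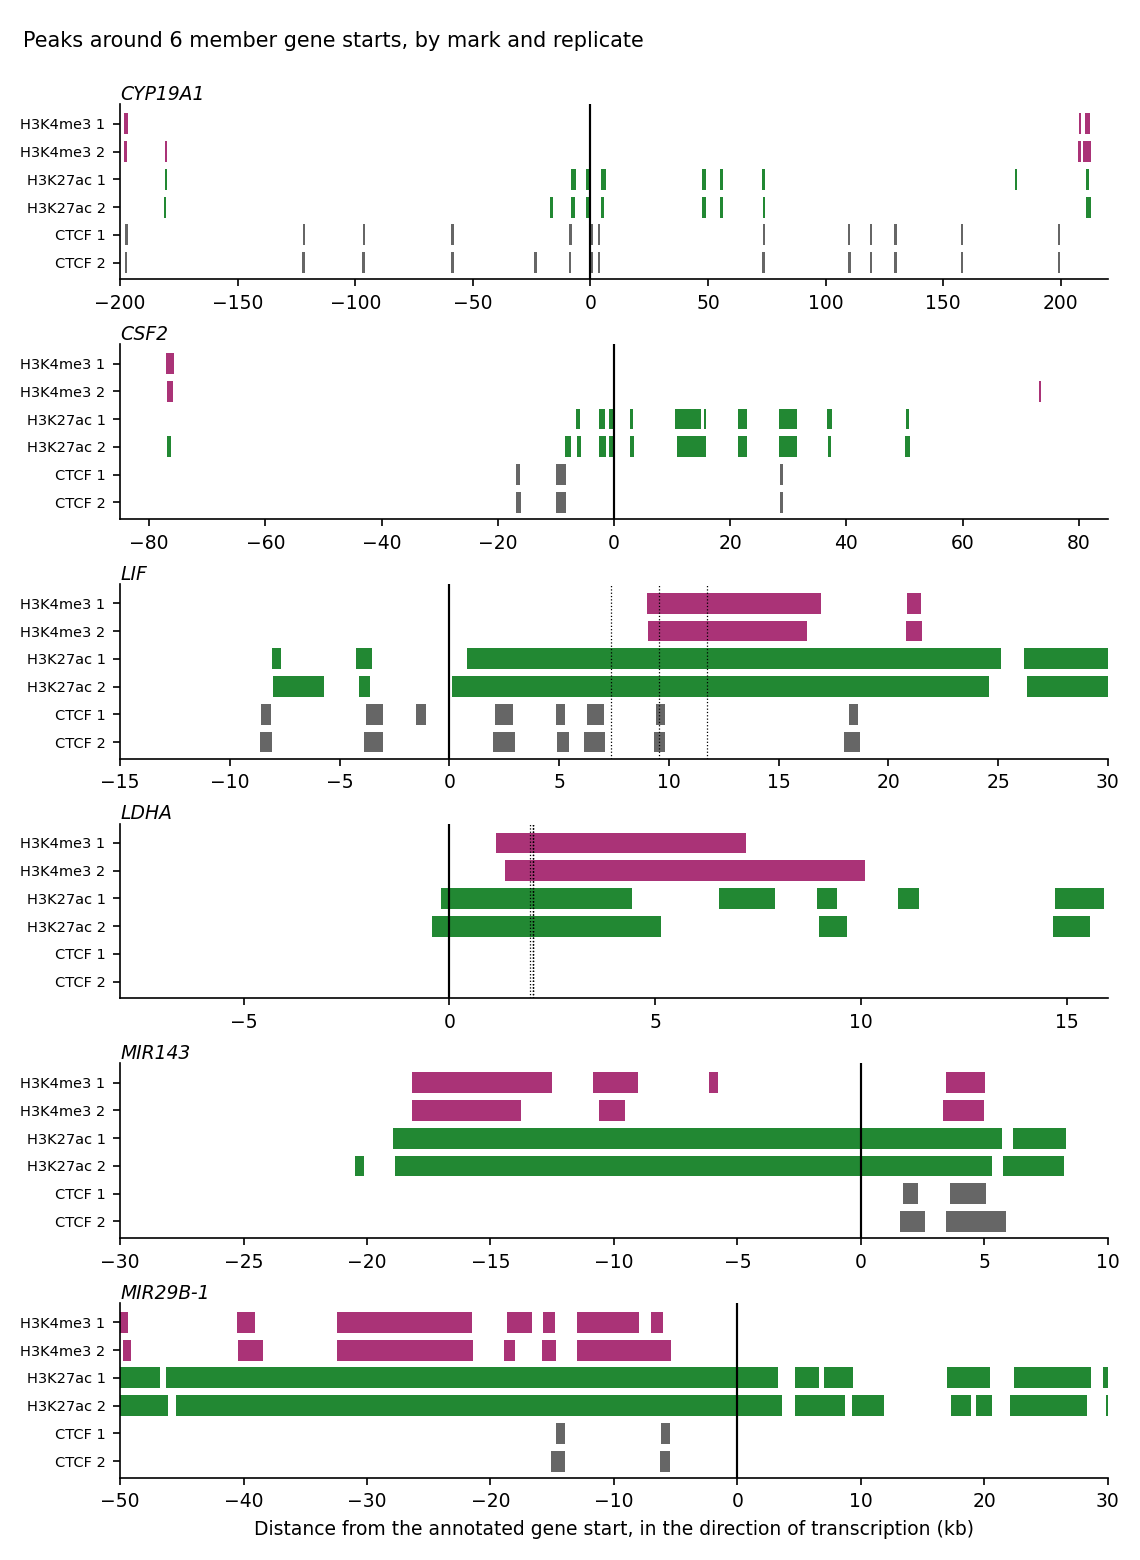
Peaks of H3K4me3, H3K27ac and CTCF (rows, by replicate) around 6 member starts, as distance in kb in the direction of transcription; the solid line is the gene start, dotted lines are other annotated starts, and very narrow peaks are widened to stay visible. CYP19A1 and CSF2 had H3K27ac at the start with H3K4me3 only at the edges of the window, whereas at LIF and LDHA the H3K4me3 peaks began 9008 and 1131 bp downstream in replicate 1.

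H3K27ac at members was weaker than at starts with both marks, with medians of 6.14 in replicate 1 and 6.51 in replicate 2 against 16.7 and 19.8. H3K27ac peaks with no gene start within 1 kb had medians of 4.33 and 4.28. The peaks at members were 1824 and 1792 bp wide in the median, against 2478 and 2495 bp at starts with both marks and 1121 and 1001 bp away from starts. In fold and width the members lay between these groups, though their peaks had to be present in both replicates and the highest was taken, conditions that the peaks away from starts did not have to meet. Starts with H3K27ac in both replicates and H3K4me3 in 1 replicate only had median folds of 7.87 and 7.91, closer to those of members. Only 107 members (15.1%) in replicate 1 and 78 (11.0%) in replicate 2 exceeded the median of starts with both marks. The 10th to 90th percentiles of the members were 3.10 to 20.1 in replicate 1 and 3.31 to 20.8 in replicate 2.

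Fold enrichment was similar in the replicates, with 39 members differing by more than 2-fold. Replicate 2 was the higher for 427 members (60.2%). Across the 709 members the rank correlation between replicates was 0.831, a description, since members are not independent and some share a peak. AGPAT1, an enzyme of phosphatidic acid synthesis, was the most unlike of the named genes, with 9.41 in replicate 1 and 42.1 in replicate 2. Its peak was 3066 bp wide in replicate 1 and 10723 bp in replicate 2, so the value of replicate 2 belongs to a wider region. The median fold was lower farther from H3K4me3, at 10.7 and 11.0 (replicates 1 and 2) among members at 1 to 2 kb, 5.29 and 5.65 at 10 to 50 kb and 4.13 and 4.20 at 50 to 100 kb, and was 4.45 and 4.39 for the 9 members beyond 100 kb.

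**Figure D4:**
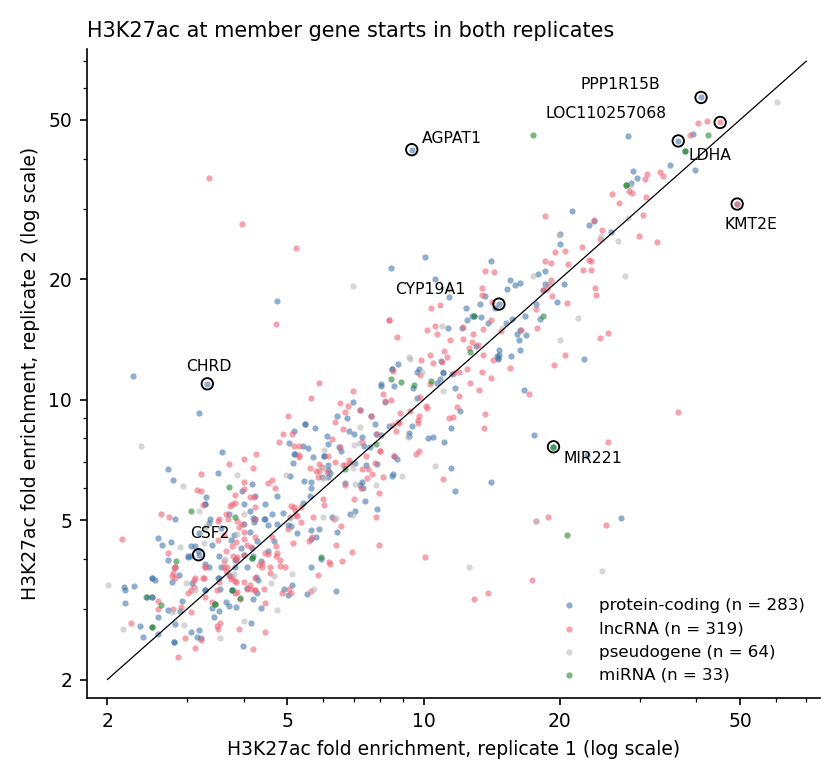
H3K27ac fold enrichment of the peak at each member start in replicate 1 against replicate 2 (log scales, each point a member, coloured by biotype; the line marks equal values). Most points lie near the line, with AGPAT1 at 9.41 and 42.1 and MIR221 at 19.4 and 7.63 away from it.

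The summit that sets the fold was often not at the start. It lay within 1 kb of the start in 344 members in replicate 1, in 353 in replicate 2 and in both for 288 (40.6%). These 288 had median folds of 4.15 and 4.63, and the other 421 had 8.70 and 8.37. The start itself was covered by an H3K27ac peak in both replicates in 295 members (41.6%), compared with 88.8% of starts with both marks. Peaks wider than 10 kb were found at 35 members in replicate 1, at 34 in replicate 2 and at 25 in both. A high fold at a member can therefore belong to a summit well away from its start.

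PPP1R15B, a regulatory subunit of protein phosphatase 1 in the stress response, had the highest mean fold among named protein-coding members, with 41.0 and 56.8. Its H3K27ac peak began 565 bp from the start in replicate 1 and 560 bp in replicate 2, with the summit of replicate 1 at 2612 bp downstream. AP5S1, a subunit of an adaptor complex, had 39.4 and 46.2 and LDHA 36.5 and 44.3, with H3K4me3 at 1761 and 1131 bp. At these 3 genes the nearest H3K4me3 peak lay downstream of the start, inside the gene. At AP5S1 and LDHA the same H3K27ac folds also stood at another start of the gene that had H3K4me3. That AP5S1 start lay 4868 bp downstream, with H3K4me3 folds of 47.8 and 19.3. The H3K27ac summit of AP5S1 in replicate 1 was 4853 bp downstream.

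KMT2E, a chromatin regulator of the trithorax group, had 49.3 and 30.8 within an H3K27ac peak of 63625 and 63725 bp. The lncRNA LOC110262248 shared that peak, so its 49.3 and 30.8 are the same measurement. ST5 had 28.3 and 45.4, and TREX1, a DNA exonuclease, had 34.9 and 38.6 with CTCF at 15.9 and 19.8. ZNF436, a zinc finger protein, had 28.9 and 37.2, and FURIN, a protease that processes precursor proteins, had 28.8 and 34.8. STRA6, a receptor for retinol-binding protein, had 25.9 and 26.3, and IRGC had 23.7 and 27.9. IRGC lay 7908 bp from H3K4me3, and the others named here were nearer. KMT2E, TREX1, ZNF436, FURIN and STRA6 had the same H3K27ac folds at another start of the gene that had H3K4me3. Their folds are thus not particular to the start that lacked it.

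LIF, an interleukin 6 family cytokine on chromosome 14 (47221540 to 47239513), had 21.3 and 29.6. The acetylated region began 789 bp downstream in replicate 1 and 100 bp in replicate 2 and was 24363 and 24486 bp wide. H3K4me3 began 9008 bp downstream in replicate 1 and 9041 bp in replicate 2, at folds of 44.1 and 17.9, over other annotated LIF starts. At the marked LIF start 11730 bp downstream the H3K27ac folds were the same 21.3 and 29.6. The lncRNA LOC106505966 on the same chromosome lay in the adjoining acetylated region, with 38.8 and 45.7.

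The lncRNA with the highest mean fold that also lay far from H3K4me3 was LOC110257068 on chromosome 15 (134348651 to 134350547), with 45.2 and 49.2. H3K4me3 was 85364 bp away in replicate 1 and 77837 bp in replicate 2, and the summit of replicate 1 was 262 bp from the start. Its nearest gene start was that of SPP2, which had neither mark. LOC102160616 had 42.3 and 49.6, and LOC110260735 had 40.3 and 49.0 at 1457 bp from H3K4me3 at the start of EMP1. The pseudogene LOC110256904 had the highest value of all in replicate 1, with 60.2 and 55.4, and lay 1955 bp from H3K4me3 at the start of LOC110256905. LOC100736577 had 28.6 and 34.2 and lay near UVRAG, and LOC100516844 had 28.2 and 28.5. The 3 tRNA members with the highest folds were all TRNAE-UUC genes, a glutamate tRNA, with 35.3 and 30.8, 26.6 and 30.3, and 11.3 and 12.02. The V segment LOC102167466 had 3.41 and 3.24 and the transcribed pseudogene LOC100737553 had 21.3 and 25.3.

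The 33 microRNA members fell into 26 loci when genes within 10 kb were joined, and 14 of them were in 7 loci with more than one member. H3K4me3 was upstream of 20 of them. The MIR143 hairpin (chromosome 2, 150578738 to 150578817) and MIR145 (150580126 to 150580211), which are abundant in smooth muscle and mesenchymal cells, lay in one H3K27ac peak of 24675 and 24173 bp with fold 28.0 and 34.3. H3K4me3 lay 3335 bp from MIR143 and 1947 bp from MIR145 at the start of IL17B. A further H3K4me3 peak upstream of both hairpins, with folds of 36.0 and 14.7, held the start of LOC100514340. That gene had both marks and lay on the same strand as the hairpins. The summit of H3K27ac was 17047 bp upstream of MIR143 in replicate 1, inside that H3K4me3 peak.

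MIR29A and MIR29B-1 on chromosome 18 shared a peak of 49599 bp in replicate 1 and 49056 bp in replicate 2, with 37.7 and 41.8. MIR100 on chromosome 9 had 42.5 and 45.8 in peaks of 53322 and 56776 bp, and in replicate 2 MIRLET7A-1 lay in the same peak. The summits were 29486 bp upstream of MIR29B-1 and 48097 bp upstream of MIR100 in replicate 1, so these folds describe the region and not the hairpin. The summit upstream of MIR29B-1 lay in an H3K4me3 peak with folds of 35.0 and 31.0. MIR221 and MIR222 on the X chromosome, whose products share a seed, had 19.4 in replicate 1, in a peak of 32372 bp, and 7.63 in replicate 2, in a peak of 3380 bp. MIR23B and MIR27B on chromosome 10 had 3.46 and 3.08 in narrow peaks of 427 and 390 bp. Folds of 10 or more were found at 13 of the 33 in replicate 1 and 13 in replicate 2, with 10 in both, and the values ran down to 2.45 at MIR28 in replicate 1. Hairpins that share a peak, such as MIR29A and MIR29B-1, were counted separately, so these counts exceed the number of loci. Apart from MIR100, MIR29A and MIR29B-1, the microRNA loci were chosen after their values were seen.

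Alternative starts were examined in the 114 members (16.1%) that had another annotated transcript start more than 1 kb from the gene start, against 17.2% of all genes. In 60 of these 114 (52.6%) another start had H3K4me3 in both replicates, and over all genes with another start the share was 53.2%. With either replicate the count was 67, against a background of 55.9%. For protein-coding members the count with both replicates was 55 of 84, a higher share than the 55.7% over all protein-coding genes with another start. The share over the 114 members was thus near the background. That of the protein-coding members was above it, and the difference was not tested. The members outside these 114 had no annotated start more than 1 kb from the gene start.

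In the 60 members with a marked other start, that start was a median of 4680 bp from the gene start, from 1307 to 95078 bp. Where several were marked, the start with the highest mean H3K4me3 fold was taken. The median H3K4me3 folds there were 47.6 in replicate 1 and 22.2 in replicate 2. H3K27ac was present in both replicates at 55 of these starts. Its median fold was 17.1 and 18.7 over the marked starts that had a peak, and 8.35 and 8.92 over all 60 gene starts. Marked starts with no H3K27ac peak in a replicate were left out of its median, so these medians cover unlike sets. In 16 genes the same values in both replicates stood at both starts. H3K27ac was higher at the marked start in both replicates in 26 genes.

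CpG content was higher at the marked start in most pairs, which were chosen by H3K4me3 and have no background over all genes here. The observed over expected ratio had a median of 0.280 at the gene start and 0.543 at the marked start, with 5 and 13 CpG per window. It was higher at the marked start in 44 of 60 genes. A ratio of at least 0.6, here called CpG-rich, was reached at 3 gene starts and 26 marked starts.

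NBL1, an antagonist of bone morphogenetic proteins, had its marked start 13313 bp downstream, with ratios of 0.493 and 0.942. LDHA had H3K4me3 at 74.0 and 33.0. TCP11L2 was marked 4415 bp downstream with 78.1 and 41.8. ORAI2, a calcium channel subunit, and PICK1, which binds protein kinase C, went the other way, with ratios of 0.343 and 0.118 at the marked start against 0.429 and 0.346 at the gene start. KMT2E was marked 35465 bp downstream, and CDKN2B, an inhibitor of the cell cycle chosen after its values were seen, 95078 bp downstream.

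**Figure D5:**
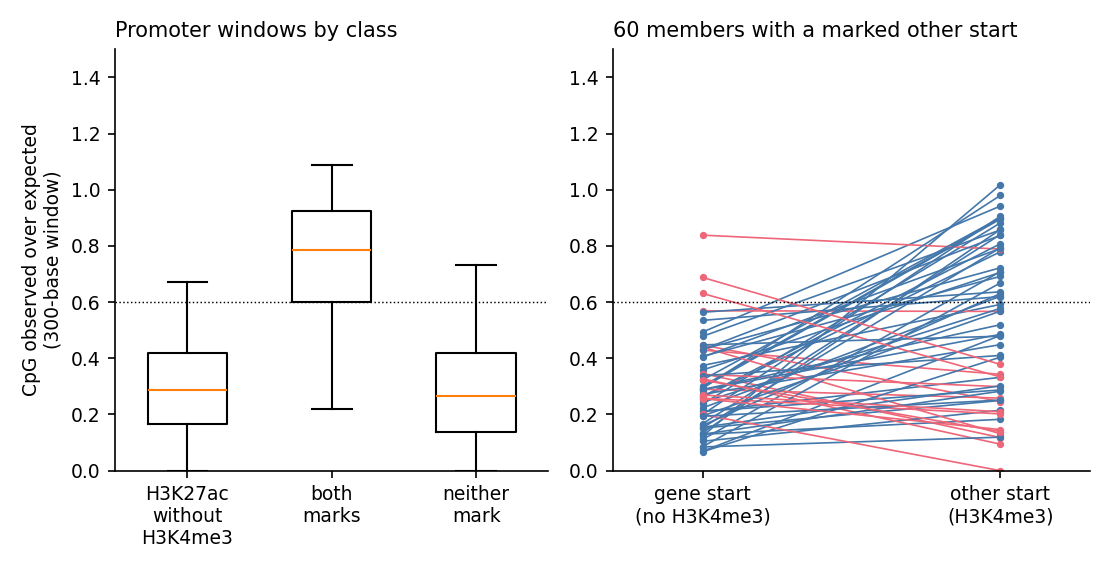
CpG observed over expected in the 300-base window at the gene start by class (left; box, quartiles and median; whiskers, 5th and 95th percentiles) and at the gene start and the marked other start of the 60 members that have one (right; each line a gene, blue where the marked start is higher); the dotted line is 0.6. The marked start was higher in 44 of 60 genes.

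Promoter windows of members were poor in CpG. The median ratio was 0.289, compared with 0.786 at starts with both marks, 0.678 at starts with H3K4me3 alone and 0.266 at starts with neither mark. CpG-rich windows numbered 59 (8.32%), against 44.8% of all genes and 75.2% of genes with both marks. The share was 33.6% where the summit had to lie within 1 kb. The low CpG content was shared with starts that had neither mark (9.95%). It was also shared with starts that had H3K27ac in both replicates and H3K4me3 in 1 replicate only (7.43%). Low CpG content thus did not set members apart from these classes. By biotype the CpG-rich share was 8.46% in lncRNA members, 7.77% in protein-coding members and 18.2% in the 33 microRNA members.

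Short words were counted in the same windows on both strands. TGANTCA, a form of the site bound by AP-1 factors, occurred in 13.3% of members and 6.96% of all genes. GGGCGG, the core of GC boxes, occurred in 15.0% against 41.3%, TATAAA in 15.0% against 12.4% and CCAAT in 33.1% against 35.5%. Starts with neither mark had TGANTCA in 9.73% and TATAAA in 19.2%, the latter above members. Starts with H3K27ac in both replicates and H3K4me3 in 1 replicate only had 13.5% and 15.5%, so these shares were not particular to members. Around the summit of the H3K27ac peak of replicate 1, within 250 bases on each side, TGANTCA was found for 176 members (24.8%), with 8.1% of all starts with such a peak as the background. The value was 6.91% at starts with both marks and 24.5% in the 62545 H3K27ac peaks away from gene starts. CpG at the summits followed the same order, with medians of 0.250, 0.749 and 0.225. In these sequence measures the summits at members were close to those of peaks away from starts. The 709 members drew on 690 distinct peaks in replicate 1, and a word match is not evidence of binding.

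Members also lay in regions with many H3K27ac peaks. A median of 9 peaks in replicate 1 and 10 in replicate 2 lay within 50 kb of the start, against 6 and 6 at starts with both marks and 1 and 2 at starts with neither. The count includes the peak at the start itself, so the rule partly fixes the difference from starts with neither mark. Starts with H3K27ac in both replicates and H3K4me3 in 1 replicate only had 9 and 8, so this was not particular to members.

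CTCF peaks occurred within 1 kb of 11.14% of member starts in CTCF replicate 1 and 13.1% in replicate 2, or 12.1% ± 1.40 (SD, n = 2). The share over all genes was 15.6% and 19.0%, and starts with both marks had 28.0% ± 4.24 (SD, n = 2). Starts with neither mark had 4.14% and 4.69%, so members lay between these classes in each replicate. Both replicates had a CTCF peak at 76 members (10.7%), against 15.2% over all genes. The difference from all genes varied by biotype. Protein-coding members had 13.8% and 14.8% (replicates 1 and 2) against 18.4% and 22.5% of annotated protein-coding genes. LncRNA members were close to annotated lncRNAs, with 10.03% and 13.5% against 11.0% and 13.5%. Pseudogene members were higher, with 10.9% in each replicate against 3.23% and 4.11%. MicroRNA members were lower, with 3.03% in each against 6.84% and 9.12%. No tRNA member had a CTCF peak.

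DEF6, a guanine nucleotide exchange factor of lymphocytes, had the highest mean CTCF fold of the protein-coding members with a symbol, with 45.2 in replicate 1 and 45.9 in replicate 2. TRIO, another exchange factor, had 41.3 and 46.9, and CSF3, the granulocyte colony-stimulating factor, had 38.6 and 40.2. C2H11orf94 had 39.4 and 37.2 and CHRNA9, a nicotinic receptor subunit, 35.3 and 39.8. The highest CTCF folds of all members were at the lncRNA LOC106509556, with 61.1 and 78.6, which was added after its values were seen. H3K27ac at the named CTCF genes ran from 3.01 at CSF3 to 17.5 at TRIO in replicate 1.

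Gene lists of fibroblast and other functions held between 0 and 3 members each, and with lists this short the shares stand beside the background of 2.53% as counts only. Matrix proteins had 0 of 30 members and 26 with both marks, and fibroblast identity genes 0 of 20 with 18. Contractile genes had 0 of 20 members and AP-1 and immediate early genes 0 of 17, with 18 and 16 carrying both marks. Among 45 records of cytokines, chemokines and growth factors, 3 were members (6.67%), namely CSF2, CSF3 and LIF, and 32 had both marks. Of 20 proteases and inhibitors, 2 were members. They were CTSK, a collagen-degrading cathepsin, with H3K27ac of 16.1 and 14.6, and SERPINE2, a protease inhibitor, with 7.23 and 9.43. CTSK had H3K4me3 1424 bp away at another of its own starts.

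Of 17 blood and immune markers, 12 had neither mark and 2 were members (11.8%). SPI1, a transcription factor of myeloid cells, had H3K27ac of 12.4 and 17.0 with H3K4me3 15883 bp away, and TYROBP, a signalling adaptor of myeloid cells, had 3.17 and 4.18 with H3K4me3 5619 bp away at the starts of HCST and NFKBID. Of 10 skeletal muscle markers, MYOG alone was a member, with 7.06 and 5.26 and CTCF in replicate 1 only, at 9.67. The lists of epithelial (13 matched), endothelial (11), liver and gut (12) and neural and glial (11) markers held no member. Whether cells other than fibroblasts contributed to SPI1, TYROBP or MYOG was not tested.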

How the data were processed

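Chromatin immunoprecipitation libraries from 2 replicates each of H3K4me3, H3K27ac and CTCF were analysed from the peak lists that were deposited for each library, and the input libraries were not used here. According to the methods, reads were aligned with Bowtie2, pairs were kept when both ends mapped uniquely with a mapping quality over 5, duplicates were removed with Picard, and MACS2 called narrow peaks on each library. The methods state a q-value of 0.01, but the deposited lists reach q-values of 0.0482 and 0.0499 in the H3K4me3 replicates, and all deposited peaks were used. The deposited columns hold a display score, the fold enrichment ratio at the summit, and the −log10 of the p-value and q-value, as the authors' peak caller wrote them. Read counts behind single peaks are not in these lists, and peak values therefore carry no interval. The study's own read totals per library, which were lowest for CTCF replicate 1, were not used here.

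Gene and transcript starts, biotypes, hairpins and sequences came from RefSeq for Sscrofa11.1, the build named in the submitters' processing notes. Genes on unplaced scaffolds (2164) and chromosome Y (147) were not analysed. A peak counted at a start when any base lay within 1 kb, and where several did, the highest fold was taken. Another start was one more than 1 kb from the gene start. CpG observed over expected was computed from 250 bases before to 50 from the start on. Scripts used Python 3.11.15, pandas 2.3.3, numpy 2.4.6, scipy 1.17.1 and matplotlib 3.10.9, and peak searches were tested on simulated data with 0 mismatches over 1000 points.

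The members and gene lists were chosen with earlier results of these data known. Named genes were the 12 protein-coding members with their own symbol and the highest mean H3K27ac fold, the 8 such members farthest from H3K4me3, 5 lncRNAs and 3 of each other biotype with the highest H3K27ac, 5 such protein-coding members with CTCF in both replicates and the highest mean fold, 6 with the highest H3K4me3 fold at another start, members of the gene lists, and the 3 genes nearest each side of the limit. One named gene is not reported here. With 2 replicates per mark and members chosen by these marks, values are given per replicate and no test was run.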

Additional observations from a re-analysis of the deposited data

How the results depend on the processing

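The number of members, the protein-coding share, the share with an H3K4me3 peak of either replicate at another start (9.45%), the median distance to H3K4me3, the mean CTCF share and the CpG-rich share were recomputed under each alternative. A change counted when the number moved by more than 1.5 times, a share left its 95% Wilson interval, or the distance or CTCF share moved by more than 1 SD of the replicates (528 bp and 1.40 points).

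With a limit of 0.5 kb the median distance was 4524 bp and the CTCF share 7.55%. At 2 kb the other-start share was 7.11%, the distance 8060 bp and the CTCF share 17.4%, and at 5 kb they were 5.77%, 13202 bp and 25.9%, with 10.7% CpG-rich. These limits change the window itself. With −log10 q of at least 5 in all lists the distance was 7070 bp. Requiring the summit within 1 kb, which also drops wide H3K4me3 peaks from the start, gave 721 members, with 65.0% protein-coding, an other-start share of 16.1%, a distance of 1923 bp, a CTCF share of 17.96% and 33.6% CpG-rich, so these values rest on counting any base of a peak. Requiring every annotated start to lack H3K4me3 gave 34.8% protein-coding and leaves no other-start share by construction. Protein-coding genes alone were 283 members, with an other-start share of 20.8%, a distance of 4635 bp and a CTCF share of 14.3%. A CpG threshold of 0.75 left 2.82% CpG-rich.

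Leaving out 1 H3K4me3 or H3K27ac library at a time gave 760 to 898 members, 39.5% to 41.3% protein-coding and 7.82% to 8.68% CpG-rich. The other-start share was then 8.95% to 9.66%, the distance 5865 to 7372 bp and the CTCF share 11.2% to 12.8%. CTCF does not enter the rule, and its share was 13.1% without CTCF replicate 1 and 11.14% without CTCF replicate 2. The distance was 6510 bp without H3K4me3 replicate 1 and 7372 bp without replicate 2. No paired analysis was possible because the values come from no test. The results are limited by 2 replicates per mark and by the lack of read counts behind single peaks.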
